A study of Mus musculus with 6 samples.

Results

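The comparison of LPS with control macrophages rests on 4 RNA-seq libraries of a series of 6: 2 of control alveolar macrophages (control 1 and control 2) and 2 of alveolar macrophages given lipopolysaccharide alone (LPS 1 and LPS 2). The libraries were taken by their treatment labels and not by any measured value, and all 10724 of 23413 listed genes with enough counts were tested. The macrophages were washed from the lungs of wild-type (WT) mice. The LPS cells received 100 ng/mL lipopolysaccharide for 4 h in complete culture medium. The controls are labelled only as control; a vehicle is not named. Their time in culture is not stated, nor are the strain, age and number of mice. The other 2 libraries, of cells given LPS together with 50 nM vitamin D3 (VD3), entered the statistical model for its estimate of spread only.

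Alveolar macrophages are the resident phagocytes of the airspaces. They take up inhaled particles and clear surfactant lipid. Lipopolysaccharide, from the outer membrane of Gram-negative bacteria, is handed by Cd14 to the receptor Tlr4. One adaptor branch of this receptor leads to NF-kB and AP-1 transcription factors, and the other to Irf3 and the genes of type I interferon, which then acts back on the cell through factors such as Stat2 and Irf9.

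Each of the 4 libraries held between 5022314 and 5454955 counts, in 13234 to 13278 genes. Values are given as CPM, counts per 1000000 counts of the library, after scaling by the trimmed mean of M values (TMM). Log2 fold changes are LPS over control with their standard error, and adjusted p values come from edgeR's quasi-likelihood test with Benjamini-Hochberg adjustment over all tested genes. A gene passed the test at an adjusted p under 0.05. The labels do not tell whether replicate libraries stem from different animals or cultures. The p values therefore refer to library-to-library spread, which may be technical. The controls resembled each other more than the LPS libraries did (r = 0.991 against 0.969, Pearson, across genes on log2 CPM). The difference between LPS 1 and LPS 2 followed transcript GC content (Spearman's correlation 0.664 across genes, 0.232 between the controls), and the ribosomal RNA gene Rn45s stood at 21535 and 27954 CPM in control and at 4209 and 25473 CPM in LPS. The title of LPS 1 has a number from another range than the other titles, a possible batch that falls on 1 library. Within the shared range LPS 2 alone stands against both controls, as in the fits without LPS 1 below. A batch was not tested. All 25 listed alveolar macrophage markers that the table holds were measured, among them Marco, Siglec5 (the older symbol of Siglecf), Pparg and Car4; 4 rose and 13 fell, with summed CPM of 26210 and 27523 in control and 27605 and 29004 in LPS. Of the neutrophil markers, S100a9, Mpo, Elane, Ngp and Retnlg had 0 counts in all 4 libraries, and the summed CPM was 63.0 and 67.0 in control and 89.9 and 87.2 in LPS. Cd3e (lymphocyte), Epx (eosinophil), Sftpc (epithelial) and Col3a1 (stromal) were at 0 counts too. In their full lists, 8 of 18 lymphocyte and 9 of 10 eosinophil and mast cell markers had 0 counts. Only 5 of 16 epithelial and 3 of 12 stromal and endothelial markers did. The stromal and endothelial list summed to 53.8 and 55.3 CPM in control and 59.3 and 51.2 CPM in LPS. Of 12 dendritic cell markers 0 were at 0 counts, with summed CPM of 38.03 and 45.7 in control and 34.7 and 34.6 in LPS. Such cells were therefore not shown to be absent. The monocyte and interstitial macrophage markers summed to 716 and 709 CPM in control and 2204 and 1948 CPM in LPS; of the 4 tested 2 rose and 2 fell, and 2 markers had 0 counts. Their part in the results was not tested. In bulk RNA, fewer cells of a kind and less RNA per cell cannot be told apart.

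After 4 h of LPS, 1659 genes (15.5% of those tested) had risen and 1712 (16.0%) had fallen, so 31.4% of the measured transcriptome passed the test. The counts of gene lists below are to be set against the shares of 15.5% and 16.0%. A list near these shares is not read as changed. The raised and the lowered genes were nearly equal in number. Raised genes had a median log2 fold change of 1.21 and lowered genes one of -1.18. By fitted fold, 246 genes rose and 98 fell at least 8-fold, and 107 rose and 8 fell at least 32-fold. Of the raised genes 77 had 0 to 3 counts in control, and of the lowered 31 had 0 to 3 counts in LPS. Fitted folds are uncertain there, and genes silent in control enter the test only through groups in which they are higher. No difference between the 2 directions is read from the largest folds. For every gene that passed, the control and LPS libraries did not overlap, which was also true of 65.2% of all tested genes. Where the groups of a passing gene are said below to lie apart, this therefore adds no support. The split into higher and lower depended on scaling: by library size alone, with a shift of the overall median by -0.29 on the log2 scale, 1089 genes were higher and 3023 lower. Without control 1 the counts were 954 and 1010, and without control 2 they were 961 and 961. Without LPS 1 they were 2026 and 1978, and without LPS 2 they were 2397 and 2378.

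Genes were grouped by their mean level in control cells. Of 219 genes under 1 CPM in control, 169 rose (median 4.74 on the log2 scale), but genes this low can enter the test only through groups in which they are higher, so nothing is read from this share. In the classes from 1 to 10, from 10 to 100 and from 100 to 1000 CPM, the shares that rose were 12.96%, 14.1% and 16.1%, and the shares that fell were 10.3%, 17.99% and 19.4%. Raised genes had medians of 1.73, 0.96 and 0.87, and lowered genes had medians of -1.81, -1.11 and -0.94. Above 1000 CPM, 14 of 72 genes rose and 10 fell, with medians of 0.96 and -0.77. A gene of low count needs a larger fold to pass, so no trend is read from these medians. The median exonic length was 4.60 kb for raised, 5.24 kb for lowered and 4.52 kb for all tested genes.

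**Figure D1:**
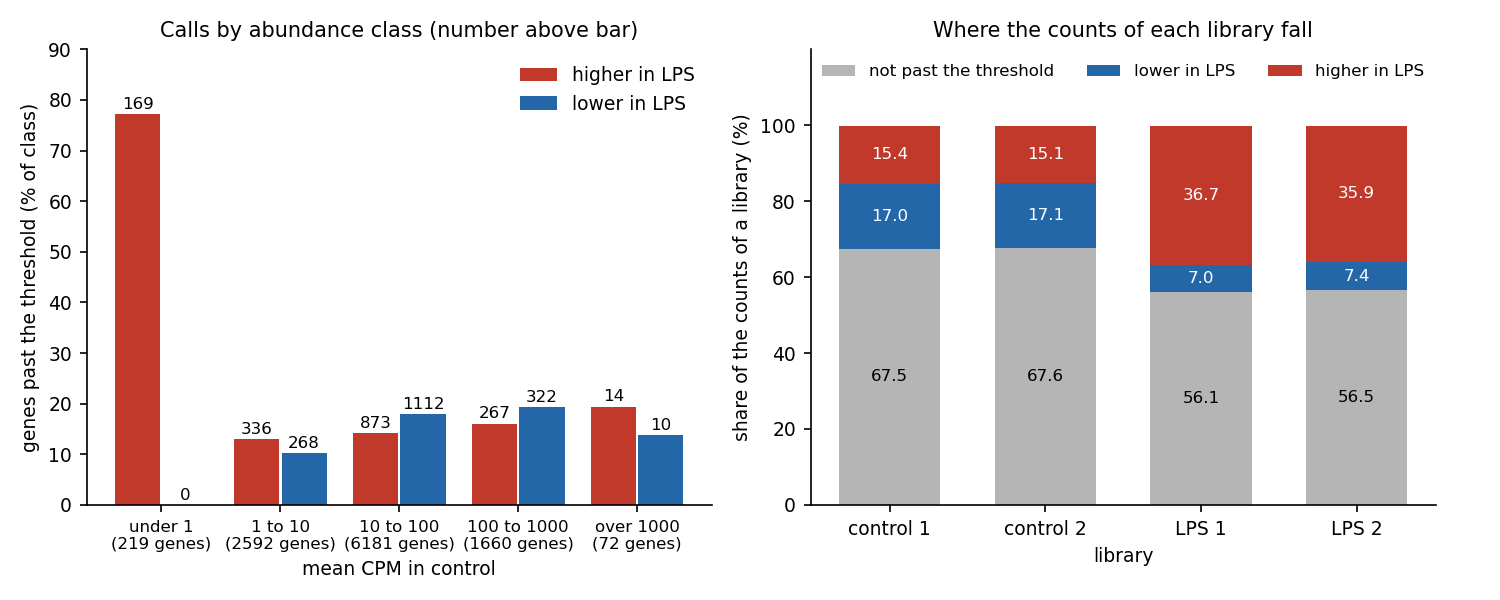
Left, share of tested genes (%) in each class of mean control CPM that passed the test upward (red) or downward (blue), with the number of genes above each bar. Right, share (%) of the counts of each library held by genes that rose, fell or did not pass. Raised genes hold 15.4% and 15.1% of control counts and 36.7% and 35.9% of LPS counts. The genes were called from these same libraries, so the direction of this shift was fixed beforehand.

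The share of each library's counts was also taken, as reads not corrected for gene length and with Rn45s included. The raised and lowered genes were called from these same libraries. The direction in which their shares moved was therefore fixed beforehand. The genes that rose held 15.4% and 15.1% of the counts in control and 36.7% and 35.9% in LPS. The genes that fell held 16.97% and 17.1% in control and 7.04% and 7.42% in LPS. The number of genes that make up 50% of a library's counts went from 552 and 549 in control to 378 and 383 in LPS. The 15 genes with the largest gain in CPM held 32.2% of all CPM gained by raised genes, and the 15 largest losses held 19.1% of all CPM lost.

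Among these 15 gains, next to the cytokines and chemokines Il1b, Il1a, Tnf, Cxcl2, Cxcl3, Ccl3 and Ccl9, stood genes of iron, redox and amino acid handling. Fth1, the ferritin heavy chain that stores iron, stood at 10692 and 10503 CPM in control and 19493 and 17829.8 CPM in LPS (log2 fold change 0.82 ± 0.13, adjusted p = 0.000952). Slc7a2, an importer of arginine and lysine, stood at 1435 and 1446 CPM in control and 7704 and 9688 CPM in LPS (log2 fold change 2.59 ± 0.16, adjusted p = 1.27e-06). Plek, the protein kinase C substrate pleckstrin, stood at 1354 and 1484 CPM in control and 6474 and 9123 CPM in LPS (log2 fold change 2.46 ± 0.18, adjusted p = 4.91e-06). In these 3 genes both LPS libraries lay above both controls. The others were Slc7a11, Prdx1, Cybb, Irg1 and Tnfrsf1b. Cybb, the catalytic subunit of the phagocyte NADPH oxidase, stood at 2251 and 2272 CPM in control and 4873 and 6899.9 CPM in LPS (log2 fold change 1.38 ± 0.17, adjusted p = 0.000169). Prdx1, a peroxide-removing peroxiredoxin, stood at 2659 and 2577 CPM in control and 5295 and 5884 CPM in LPS (log2 fold change 1.09 ± 0.16, adjusted p = 0.000597).

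The 15 largest losses of CPM came from genes of several kinds, the chemokine Ccl6 and the actin gene Actb among them. Atp6v0d2, a subunit of the proton pump that acidifies lysosomes, stood at 1795 and 1944 CPM in control and 545 and 742 CPM in LPS (log2 fold change -1.54 ± 0.18, adjusted p = 0.000116). Lipa, the lysosomal acid lipase, stood at 2129 and 2137 CPM in control and 1134 and 1372 CPM in LPS (log2 fold change -0.77 ± 0.14, adjusted p = 0.00243). Tgfbi, a secreted matrix protein named for its induction by TGF-beta, stood at 1150.4 and 1096 CPM in control and 406 and 350.0 CPM in LPS (log2 fold change -1.57 ± 0.15, adjusted p = 2.72e-05). The 4 libraries fell into non-overlapping pairs for each of them. Adipor2, a receptor for adiponectin (572 and 598 CPM in control, 124 and 113 CPM in LPS), Hip1, an endocytic adaptor (544 and 533 against 128 and 130.1 CPM), and Mycbp2, a large ubiquitin ligase (628 and 634 against 109 and 174 CPM), were also among the 15. Of the losses, 4 were small in fold and lost their call when 1 control library was left out. Actb, Ccl6, Hspa8 and Clec7a had log2 fold changes of -0.40 ± 0.14, -0.51 ± 0.13, -0.42 ± 0.13 and -0.46 ± 0.15, and without control 1 their adjusted p values were 0.279, 0.126, 0.275 and 0.185. Without control 2 the values were 0.26, 0.151, 0.232 and 0.268. That of Clec7a without LPS 1 was 0.0684, and that of the mannose receptor Mrc1, another of the 15, was 0.0785 without control 2.

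Ranked by CPM per kilobase of exon, 70 of the 100 most abundant genes of control cells were also among the 100 most abundant of LPS cells. All 30 genes that entered this group had passed the test upward, while 6 of the 30 that left it had fallen. Ranks and calls come from the same libraries. The directions were therefore largely fixed beforehand, and nothing is read from these counts. Chi3l3, a secreted chitinase-like protein, and Lyz2, lysozyme, held the first and second rank in both groups. Their levels were 15332 and 15052 CPM in control and 17198 and 16195 CPM in LPS for Chi3l3 and 11124 and 10170.1 CPM in control and 15620.5 and 10954 CPM in LPS for Lyz2, and neither passed the test (adjusted p = 0.546 and adjusted p = 0.196). Without LPS 2 the adjusted p of Lyz2 was 0.00264. Irg1 (now Acod1), which makes itaconate, moved from rank 9475 to 31, Cxcl2 from 7155 to 22, Il1b from 1597 to 5 and Ccl3 from 411 to 4.

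**Figure D2:**
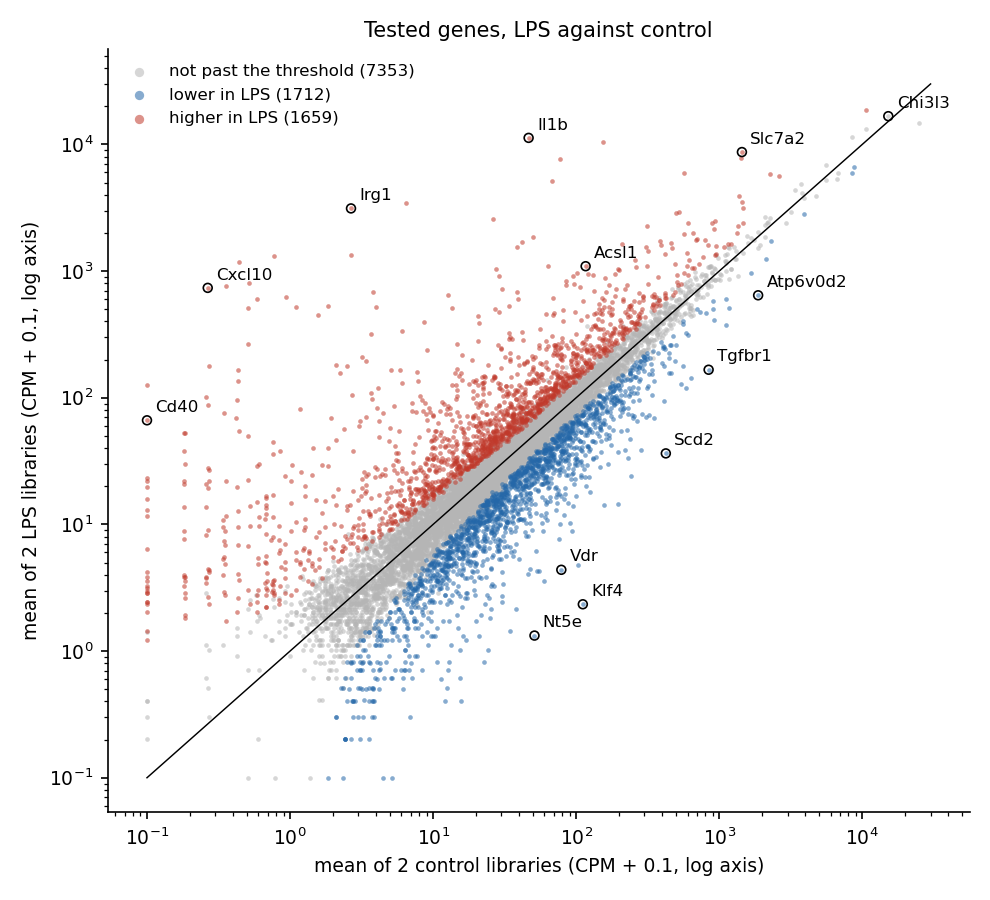
Each point is 1 of 10724 tested genes, placed by its mean CPM plus 0.1 in the 2 control libraries (horizontal, log axis) and the 2 LPS libraries (vertical, log axis); the line marks equal levels. The 1659 raised genes (red) reach far from the line at low control levels, as Cxcl10, Cd40 and Irg1 do, and the 1712 lowered genes (blue) lie in a narrower band with Klf4, Nt5e, Vdr and Scd2 at its edge. Genes silent in control enter the test only through groups in which they are higher, so nothing is read from the difference in width.

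Promoters of some interferon-stimulated genes, chemokines and an NF-kB inhibitor are shown here because these raised genes hold the elements searched for. RefSeq promoter windows (250 bases before to 50 after the start, GRCm38.p6, the first listed start of a gene) matched 8566 of the 10724 tested genes. The interferon-type element, 2 copies of GAAA with any 2 bases between them, was searched on both strands. It was found in 17.4% of the 184 windows of genes that rose at least 8-fold, in 2.20% of the 227 windows of genes that fell at least 4-fold, and in 3.20% of all 8566. Of the 38 windows of interferon-stimulated genes, 21 held it. The kappaB-type element, GGGA and TTCC with any 2 bases between them, was found in 5.98%, 0.88% and 1.49% of the same sets. It was in 4 of 13 chemokine windows. Among all raised genes (1303 windows) the shares of the 2 elements were 6.29% and 2.76%. Among all lowered genes (1353 windows) they were 2.7% and 1.26%. The 8-fold and 4-fold sets differ in threshold. Genes silent in control enter the test only through groups in which they are higher, so nothing is read from the difference between these 2 sets. A match describes the letters only and says nothing of binding. The stretches below are 70 bases of the window, read on the gene's strand and placed so that the element, in capitals and on either strand, lies inside.
Ifit1, chr19:34640773-34640842, plus strand: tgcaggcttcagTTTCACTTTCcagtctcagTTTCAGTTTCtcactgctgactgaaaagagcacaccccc
Rsad2, chr12:26456515-26456584, minus strand: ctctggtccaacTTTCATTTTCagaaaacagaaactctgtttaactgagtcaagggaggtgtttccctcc
Gbp5, chr3:142496757-142496826, plus strand: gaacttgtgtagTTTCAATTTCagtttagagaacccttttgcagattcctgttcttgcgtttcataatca
Cxcl1, chr5:90891162-90891231, plus strand: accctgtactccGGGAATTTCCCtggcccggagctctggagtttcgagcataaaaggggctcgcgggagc
Cxcl2, chr5:90903790-90903859, plus strand: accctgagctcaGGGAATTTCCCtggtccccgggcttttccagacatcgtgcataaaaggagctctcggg
Cxcl3, chr5:90786016-90786085, plus strand: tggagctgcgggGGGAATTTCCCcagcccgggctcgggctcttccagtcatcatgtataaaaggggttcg
Nfkbia, chr12:55492648-55492717, minus strand: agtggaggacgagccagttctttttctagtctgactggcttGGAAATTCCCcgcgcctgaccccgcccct

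The first 3 are interferon-stimulated genes and the next 3 neutrophil-attracting chemokines that neighbour each other on chromosome 5. Rsad2, the antiviral enzyme viperin, stood at 0.343 and 0.641 CPM in control and 596 and 599.6 CPM in LPS. Gbp5, a guanylate-binding GTPase, stood at 1.88 and 1.603 CPM in control and 519 and 546 CPM in LPS. Cxcl1 stood at 0.343 and 0.481 CPM in control and 518 and 507 CPM in LPS. All 49 tested members of the interferon-stimulated list rose (median 3.82 on the log2 scale), and 16 of 19 tested chemokines rose and 2 fell. A member silent in control can enter the test only through groups in which it is higher, so nothing is read from these counts. Cxcl3 had the highest level of the 3 chemokines (81.03 and 72.8 CPM in control and 7807 and 7545 CPM in LPS, log2 fold change 6.64 ± 0.20, adjusted p = 1.3e-08).

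Among transcription factors, all 11 NF-kB subunits and IkB proteins rose (median log2 fold change 2.83, against 0.01 over all tested genes). Nfkbiz, the nuclear cofactor IkB-zeta, stood at 2.06 and 3.21 CPM in control and 93.4 and 115 CPM in LPS (log2 fold change 5.29 ± 0.25, adjusted p = 2.35e-07). Nfkb2, the precursor of the p52 subunit, stood at 41.3 and 36.4 CPM in control and 691 and 506 CPM in LPS (log2 fold change 3.94 ± 0.20, adjusted p = 4.7e-07). Nfkbia, the inhibitor that carries the element shown above, stood at 72.8 and 64.8 CPM in control and 514 and 391 CPM in LPS (log2 fold change 2.72 ± 0.18, adjusted p = 2.5e-06). LPS libraries lay above the controls in each. Of 14 IRF and STAT factors 6 rose and 1 fell. Irf7, which amplifies interferon production, stood at 1.199 and 0.962 CPM in control and 106 and 55.6 CPM in LPS (log2 fold change 6.20 ± 0.41, adjusted p = 2.31e-06). Stat2 and Irf9, members of the interferon-activated complex, had log2 fold changes of 2.72 ± 0.20 and 2.76 ± 0.21, and Irf1 had 2.05 ± 0.20. Irf8, a myeloid lineage factor chosen after its values were seen, was the 1 that fell (36.1 and 38.3 CPM in control and 14.98 and 11.7 CPM in LPS, log2 fold change -1.48 ± 0.20, adjusted p = 0.000293).

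Several lineage and signal-dependent factors fell. Klf4, a zinc finger factor of the monocyte lineage, stood at 103 and 119.6 CPM in control and 2.26 and 2.23 CPM in LPS (log2 fold change -5.62 ± 0.28, adjusted p = 3.49e-07), so both LPS libraries were far below both controls. Vdr, the vitamin D receptor, stood at 77.3 and 79.98 CPM in control and 4.72 and 3.84 CPM in LPS (log2 fold change -4.19 ± 0.22, adjusted p = 5.08e-07). Nfe2, a basic leucine zipper factor known from blood cells, stood at 15.4 and 16.5 CPM in control and 0.616 and 1.82 CPM in LPS (log2 fold change -3.68 ± 0.40, adjusted p = 6.85e-05). Tcf7l2, an effector of Wnt signalling, stood at 166 and 169 CPM in control and 24.8 and 34.4 CPM in LPS (log2 fold change -2.50 ± 0.21, adjusted p = 1.34e-05). Fli1, an ETS factor, stood at 57.6 and 65.7 CPM in control and 10.1 and 14.2 CPM in LPS (log2 fold change -2.35 ± 0.23, adjusted p = 3.24e-05). Both pairs of libraries were apart in each gene. Id1, an inhibitor of basic helix-loop-helix factors, Epas1, the hypoxia factor HIF-2alpha, and Tfeb, a regulator of lysosomal genes, had log2 fold changes of -2.44 ± 0.25, -1.23 ± 0.18 and -1.79 ± 0.29.

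Other factors rose. Nr4a3, an orphan nuclear receptor of the early response, had 0 counts in both controls and stood at 15.6 and 15.8 CPM in LPS (at least 63.2-fold higher, adjusted p = 3.58e-05, against a floor of 3 counts over the group). Ets2 stood at 26.6 and 26.1 CPM in control and 142 and 143 CPM in LPS (log2 fold change 2.43 ± 0.16, adjusted p = 1.9e-06), the forkhead factor Foxp4 at 8.57 and 8.33 CPM in control and 97.5 and 58.1 CPM in LPS (log2 fold change 3.20 ± 0.28, adjusted p = 1.65e-05). Ahr, the aryl hydrocarbon receptor, stood at 1.199 and 1.92 CPM in control and 11.5 and 12.9 CPM in LPS (log2 fold change 2.94 ± 0.31, adjusted p = 5.57e-05). In the basic leucine zipper list, with AP-1, ATF and C/EBP members, 14 of 38 rose and 8 fell, the latter 4 without control 1 and 4 without control 2. Atf3, Junb and Nfe2l1 rose by 1.88 ± 0.17, 2.49 ± 0.28 and 1.36 ± 0.14 on the log2 scale. Of 15 KLF, EGR and SP factors 2 rose and 4 fell (1 and 2 without control 1, 1 and 2 without control 2), among them Klf6, up by 1.05 ± 0.17, and Klf10, at -1.48 ± 0.18. Nuclear receptors divided as 6 up and 3 down of 21, which turned to 3 and 6 under scaling by library size alone. Without control 1 and without control 2 the receptors that rose were 3 and 2, and without LPS 2 those that fell were 5. Nr3c1, the glucocorticoid receptor, rose by 1.05 ± 0.18, and Rxra, the partner of Vdr, fell (-1.10 ± 0.17).

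ETS, RUNX and other lineage factors gave 6 raised and 9 lowered of 34 (4 lowered without control 2). Basic helix-loop-helix and PAS factors gave 4 and 7 of 32, with 2 raised without control 1, 2 without control 2 and 8 without LPS 2. Chromatin modifiers gave 7 up and 6 down of 47 (14.9% and 12.8%), against 15.5% and 16.0% over all tested genes. Nothing is read from these counts as a class, which were 6 and 11 under library size scaling. Kdm6b, which removes the repressive H3K27 methyl mark, stood at 13.2 and 12.7 CPM in control and 77.6 and 71.6 CPM in LPS (log2 fold change 2.53 ± 0.21, adjusted p = 1.05e-05). Setd7, a lysine methyltransferase, stood at 70.8 and 72.4 CPM in control and 17.2 and 15.4 CPM in LPS (log2 fold change -2.13 ± 0.18, adjusted p = 1.08e-05), and the order of the 2 groups was thus opposite in these 2 genes. The 277 numbered zinc finger genes, a large and poorly characterised family, gave 19 up and 20 down, smaller shares than over all genes. These zinc finger counts were among the least stable: 6 and 9 without control 1, 9 and 9 without control 2, 36 and 18 without LPS 1, 30 and 55 without LPS 2, and 10 and 43 with library size scaling. Zfp558 (1.199 and 1.92 CPM in control and 25.4 and 32.98 CPM in LPS, log2 fold change 4.20 ± 0.31, adjusted p = 4.92e-06) was the member with the smallest p.

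**Figure D3:**
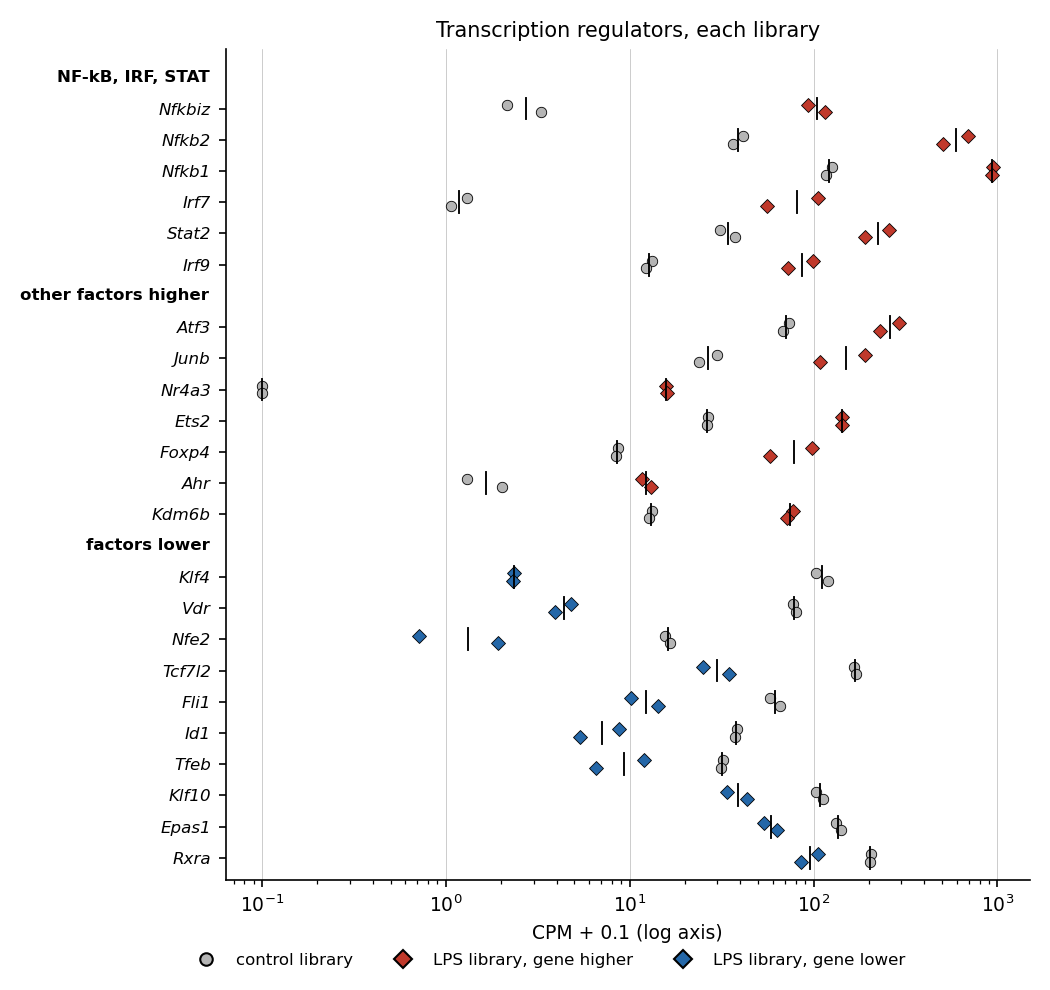
CPM plus 0.1 (log axis) of 23 transcription regulators in each control library (grey circles) and LPS library (diamonds; red for genes that rose, blue for genes that fell); the vertical tick is the mean of the 2 libraries. All of these genes passed the test, and the 2 groups overlap in none that passed, nor in 65.2% of all tested genes. Klf4 goes from over 100 CPM in both controls to near 2 CPM in both LPS libraries.

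Among receptors for microbial and damage signals, 16 of 31 pattern recognition receptors and nucleic acid sensors were higher and 5 lower, the latter 3 without control 1 and 2 without control 2. Clec4e (Mincle), a lectin for mycobacterial glycolipid, stood at 51.2 and 49.04 CPM in control and 1640.0 and 2077 CPM in LPS (log2 fold change 5.21 ± 0.19, adjusted p = 3.92e-08). Clec4d stood at 169 and 155 CPM in control and 634 and 729 CPM in LPS (log2 fold change 2.07 ± 0.15, adjusted p = 4.88e-06). Nlrp3, the inflammasome sensor, stood at 27.8 and 26.6 CPM in control and 519.8 and 479 CPM in LPS (log2 fold change 4.20 ± 0.17, adjusted p = 7.38e-08). Ifih1, the RNA sensor Mda5, stood at 26.9 and 28.2 CPM in control and 901 and 1179 CPM in LPS (log2 fold change 5.24 ± 0.20, adjusted p = 5.83e-08). Controls and LPS libraries were apart in all 4. The lectin list had 9 raised and 17 lowered of 36 C-type lectins, Siglecs and galectins (median -0.31); 10 fell without control 1 and 7 without control 2. Cd93, a lectin-like receptor, stood at 116 and 122 CPM in control and 26.5 and 32.6 CPM in LPS (log2 fold change -2.01 ± 0.17, adjusted p = 1.42e-05). Siglec5, chosen after its values were seen, stood at 213 and 207 CPM in control and 91.7 and 83.1 CPM in LPS (log2 fold change -1.26 ± 0.15, adjusted p = 0.000125).

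The list of receptors for nucleotides, adenosine, lipids and metabolites, which also holds the enzymes Nt5e and Entpd1, had 14 lowered and 8 raised of 29 (5 and 18 raised and lowered with library size scaling; 5 raised without control 1 and 5 without control 2). Extracellular ATP is broken down to adenosine by surface enzymes, and adenosine then acts on receptors of its own. Nt5e (CD73), which makes adenosine from AMP, stood at 46.1 and 55.9 CPM in control and 1.64 and 0.809 CPM in LPS (log2 fold change -5.36 ± 0.33, adjusted p = 1.54e-06). The adenosine receptors Adora2a and Adora2b went the opposite way, Adora2a standing at 0.685 and 0.641 CPM in control and 50.5 and 38.6 CPM in LPS (log2 fold change 6.02 ± 0.32, adjusted p = 5.59e-07) and Adora2b at 15.2 and 14.1 CPM in control and 127 and 105 CPM in LPS (log2 fold change 2.98 ± 0.20, adjusted p = 2.98e-06). Nt5e and these 2 receptors thus moved in opposite directions, with no overlap between groups. Not all adenosine receptors did so: Adora3 fell like Nt5e (7.2 and 8.33 CPM in control and 1.03 and 1.82 CPM in LPS). Cnr2, a cannabinoid receptor, stood at 60.8 and 58.8 CPM in control and 3.899 and 3.03 CPM in LPS (log2 fold change -4.10 ± 0.23, adjusted p = 8.77e-07). A further 4 purine-linked members that fell were picked after their values were seen: Entpd1 (-2.01 ± 0.26), P2ry6 (-1.49 ± 0.20), P2ry13 (-1.09 ± 0.17) and Adora3 (-2.43 ± 0.41).

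Of 16 chemokine and chemoattractant receptors 6 rose and 7 fell. Among those that rose, Fpr1, a formyl peptide receptor, stood at 142 and 125 CPM in control and 731 and 652 CPM in LPS (log2 fold change 2.37 ± 0.16, adjusted p = 2.31e-06). Ptafr, the receptor of platelet-activating factor, stood at 14.4 and 11.5 CPM in control and 90.5 and 75.1 CPM in LPS (log2 fold change 2.67 ± 0.20, adjusted p = 4.44e-06). Ccrl2, a chemerin-binding receptor that does not signal like a chemokine receptor, stood at 3.26 and 3.37 CPM in control and 212 and 176 CPM in LPS (log2 fold change 5.86 ± 0.22, adjusted p = 5.83e-08). Among those that fell, the chemokine receptor Cxcr4 stood at 9.25 and 8.98 CPM in control and 1.23 and 0.809 CPM in LPS (log2 fold change -3.13 ± 0.39, adjusted p = 0.000168), lower in both LPS libraries. C5ar2, a second receptor for complement C5a, was picked after its values were seen and stood at 14.9 and 15.7 CPM in control and 0.4104 and 0.607 CPM in LPS (log2 fold change -4.85 ± 0.47, adjusted p = 3.14e-05).

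Cytokine and growth factor receptors gave 18 raised and 9 lowered of 44 (5 lowered without control 2; 14 and 14 with library size scaling); this list also holds Il1rn, a secreted antagonist. Met, the receptor of hepatocyte growth factor, stood at 94.1 and 95.7 CPM in control and 753 and 1062 CPM in LPS (log2 fold change 3.26 ± 0.19, adjusted p = 1.1e-06). Il20rb, a subunit of the receptors for interleukins of the IL-20 group, stood at 26.6 and 21.6 CPM in control and 197 and 164 CPM in LPS (log2 fold change 2.90 ± 0.19, adjusted p = 1.9e-06). Nrp2, a co-receptor of semaphorins and VEGF, stood at 459.8 and 463 CPM in control and 1625 and 1686 CPM in LPS (log2 fold change 1.84 ± 0.15, adjusted p = 9.11e-06). All 3 were higher in both LPS libraries. TNF receptor family members divided as 4 up and 6 down of 15. Tnfrsf1b, a receptor of TNF, stood at 516 and 525 CPM in control and 3197 and 2647 CPM in LPS (log2 fold change 2.49 ± 0.15, adjusted p = 1.4e-06), Cd40 had 0 counts in control and 82.3 and 50.2 CPM in LPS (at least 266-fold higher, adjusted p = 2.48e-06), and Relt fell (25.7 and 26.6 CPM in control and 7.18 and 4.05 CPM in LPS, log2 fold change -2.22 ± 0.26, adjusted p = 0.000101). Both chains of the TGF-beta receptor fell. Tgfbr1 stood at 793 and 893 CPM in control and 119 and 214 CPM in LPS (log2 fold change -2.34 ± 0.25, adjusted p = 5.72e-05) and Tgfbr2 at 402 and 417 CPM in control and 90.5 and 99.3 CPM in LPS (log2 fold change -2.11 ± 0.15, adjusted p = 3.76e-06), while Tgif1, a co-repressor of SMADs, rose (31.01 and 26.6 CPM in control and 121 and 118 CPM in LPS, log2 fold change 2.06 ± 0.16, adjusted p = 8.01e-06). Of the 23 genes of that list 6 rose and 4 fell; the counts were 3 and 4 without control 1, 3 and 4 without control 2 and 4 and 5 with library size scaling, which turns their order, and 11 rose without LPS 1.

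Among immunoglobulin-type myeloid receptors 15 of 34 rose and 11 fell, an order that turned to 12 and 16 with scaling by library size alone. Slamf7, a SLAM family receptor, stood at 12.3 and 14.6 CPM in control and 111 and 139 CPM in LPS (log2 fold change 3.21 ± 0.21, adjusted p = 2.46e-06). Tarm1, an activating receptor, stood at 2.57 and 3.37 CPM in control and 72.8 and 57.3 CPM in LPS (log2 fold change 4.44 ± 0.35, adjusted p = 7.32e-06). Lair1, an inhibitory receptor for collagen, stood at 85.3 and 81.3 CPM in control and 14.98 and 19.6 CPM in LPS (log2 fold change -2.26 ± 0.19, adjusted p = 1.32e-05). Cd200, the ligand of the inhibitory Cd200r1, rose (1.90 ± 0.16), whereas Cd200r1 fell (-1.29 ± 0.20), and Cd300a and Havcr2, both with inhibitory roles, fell by the same test (-1.55 ± 0.19 and -1.67 ± 0.18); these last 3 were picked after their values were seen. The near-identical Cd200r, Pilr and Sirpb genes are uncertain, because how reads with several matches were counted is not known. Of 13 costimulators and inhibitory ligands 8 rose and 0 fell. Members silent in control, such as Cd40, can enter the test only through groups in which they are higher, so nothing is read from these counts. Among the raised was Cd274 (PD-L1), which stood at 222 and 229 CPM in control and 716 and 828 CPM in LPS (log2 fold change 1.78 ± 0.16, adjusted p = 2.03e-05).

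Adhesion genes moved in both directions (11 up, 12 down of 38; 7 and 8 without control 1 and 7 and 7 without control 2). Icam1, which binds leukocyte integrins, stood at 79.1 and 82.7 CPM in control and 433 and 371 CPM in LPS (log2 fold change 2.31 ± 0.16, adjusted p = 3.01e-06). Alcam stood at 60.8 and 61.5 CPM in control and 237 and 324 CPM in LPS (log2 fold change 2.20 ± 0.19, adjusted p = 1.32e-05). Cdh1, E-cadherin, by which alveolar macrophages can attach to epithelium, stood at 222 and 238 CPM in control and 30.4 and 35.8 CPM in LPS (log2 fold change -2.80 ± 0.19, adjusted p = 2.82e-06), the LPS libraries being lower. Cdh1 is also an epithelial marker, and 5 epithelial markers, among them Sftpc and Sftpa1, had 0 counts; the summed CPM of the epithelial list was 261 and 274 in control and 224 and 246 in LPS. Scavenger and phagocytic receptors gave 3 raised and 8 lowered of 30. The lowered were 5 without control 1 and 5 without control 2, and the raised 5 without LPS 1 and 5 without LPS 2. Marco, a scavenger receptor for bacteria and particles, stood at 1433 and 1440.1 CPM in control and 3530.4 and 3470.4 CPM in LPS (log2 fold change 1.29 ± 0.14, adjusted p = 6.85e-05). Mertk, which takes up dying cells, stood at 165 and 155 CPM in control and 80.4 and 75.3 CPM in LPS (log2 fold change -1.04 ± 0.15, adjusted p = 0.00042).

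Of 19 secreted growth factors 8 rose and 2 fell (1 without control 2). Among the 49 listed growth factors 30 were not tested. A member silent in control can enter the test only through groups in which it is higher, so nothing is read from these counts. Inhba, the activin A subunit, stood at 44.9 and 38.8 CPM in control and 1621 and 1774 CPM in LPS (log2 fold change 5.34 ± 0.17, adjusted p = 2.63e-08). Ereg, an EGF receptor ligand, stood at 3.77 and 3.69 CPM in control and 566 and 789 CPM in LPS (log2 fold change 7.50 ± 0.27, adjusted p = 3.92e-08). Jag1, a Notch ligand, stood at 9.08 and 9.78 CPM in control and 66.5 and 86.6 CPM in LPS (log2 fold change 3.02 ± 0.21, adjusted p = 3.28e-06), above control in both LPS libraries. Of 29 proteases, inhibitors and coagulation genes 12 rose and 5 fell (8 lowered without LPS 1). In this list 58 of the 87 listed genes were not tested, and for the same reason nothing is read from its counts. The matrix metalloproteinases Mmp13 and Mmp14 rose by 3.68 ± 0.19 and 2.82 ± 0.19 on the log2 scale, and F10, coagulation factor X, by 1.80 ± 0.16.

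In fatty acid synthesis, elongation and desaturation, 12 of 32 fell and 2 rose (median -0.34). Scd2, a stearoyl-CoA desaturase, stood at 413 and 433 CPM in control and 34.3 and 38.2 CPM in LPS (log2 fold change -3.54 ± 0.17, adjusted p = 2.45e-07). Elovl6, which lengthens palmitate, stood at 21.4 and 23.4 CPM in control and 0.821 and 0.607 CPM in LPS (log2 fold change -4.93 ± 0.34, adjusted p = 3.3e-06). Lpin1, a phosphatidate phosphatase, stood at 51.9 and 52.6 CPM in control and 5.13 and 7.08 CPM in LPS (log2 fold change -3.09 ± 0.22, adjusted p = 3.96e-06). Acsl1, which couples fatty acids to coenzyme A, went the other way, from 113 and 119.6 CPM in control to 1066 and 1117 CPM in LPS (log2 fold change 3.23 ± 0.15, adjusted p = 2.35e-07). The number that rose was 1 without control 1, 1 without control 2 and 5 without LPS 1. In fatty acid oxidation and peroxisomes 17 of 66 fell and 3 rose; 8 fell without control 1, 9 fell without control 2, and 9 rose without LPS 2. Cpt1a, which admits fatty acids to mitochondria, stood at 312 and 322 CPM in control and 120.0 and 127 CPM in LPS (log2 fold change -1.36 ± 0.15, adjusted p = 7.96e-05). Abcd2, a peroxisomal fatty acid transporter, stood at 324 and 355 CPM in control and 93.6 and 115 CPM in LPS (log2 fold change -1.70 ± 0.17, adjusted p = 3.66e-05).

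Cholesterol synthesis had 14 of 24 genes lower and 0 higher, with a median log2 fold change of -0.80; without LPS 2 there were 2 higher. Dhcr7, which makes cholesterol from its last precursor, stood at 115 and 117 CPM in control and 29.1 and 17.6 CPM in LPS (log2 fold change -2.31 ± 0.22, adjusted p = 3.28e-05). Sqle, squalene epoxidase, stood at 143 and 158 CPM in control and 53.1 and 58.1 CPM in LPS (log2 fold change -1.43 ± 0.15, adjusted p = 6.74e-05). Cyp51, a sterol demethylase, stood at 226 and 244 CPM in control and 99.1 and 108 CPM in LPS (log2 fold change -1.18 ± 0.16, adjusted p = 0.000312). Promoters of this group are shown because the CCAAT box, searched on both strands, was in 15 of 17 windows of the list, against 39.7% of all 8566 windows. The sterol element-type motif TCACNCCAC was in 1 of the 17 windows and in 0.96% of all. The CCAAT letters are in capitals.
Cyp51, chr5:4104698-4104767, minus strand: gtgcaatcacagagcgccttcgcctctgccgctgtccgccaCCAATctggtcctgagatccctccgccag
Lss, chr10:76531531-76531600, plus strand: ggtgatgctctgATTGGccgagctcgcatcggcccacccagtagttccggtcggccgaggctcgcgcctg
Sc5d, chr9:42264301-42264370, minus strand: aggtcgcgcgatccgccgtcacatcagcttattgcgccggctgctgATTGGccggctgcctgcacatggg

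Glucose, glycolysis, lactate and pentose phosphate genes gave 4 raised and 13 lowered of 40 (lowered: 4 without control 1, 7 without control 2; raised: 10 without LPS 2). Pfkp, a phosphofructokinase, stood at 142 and 126 CPM in control and 478 and 444 CPM in LPS (log2 fold change 1.78 ± 0.15, adjusted p = 1.42e-05). Hk2, hexokinase 2, stood at 81.2 and 81.9 CPM in control and 198 and 225 CPM in LPS (log2 fold change 1.38 ± 0.16, adjusted p = 0.00011). Slc2a6, a hexose transporter of the lysosome, stood at 7.71 and 6.41 CPM in control and 109 and 48.96 CPM in LPS (log2 fold change 3.48 ± 0.37, adjusted p = 6.02e-05). Slc16a1, a carrier of lactate and pyruvate, stood at 67.2 and 77.4 CPM in control and 11.9 and 13.96 CPM in LPS (log2 fold change -2.48 ± 0.20, adjusted p = 7.94e-06). Gapdh and Pkm, abundant glycolytic enzymes, stood at 2273 and 2279 CPM in control and 3015 and 2225 CPM in LPS and at 1208 and 1193 CPM in control and 1119 and 964 CPM in LPS and did not pass (adjusted p = 0.381 and adjusted p = 0.305); without LPS 2 the adjusted p of Gapdh was 0.0117. In pyruvate and citric acid cycle genes 3 of 44 rose and 9 fell (lowered: 5 without control 1, 4 without control 2; raised: 6 without LPS 1, 5 without LPS 2). Irg1 stood at 2.57 and 2.56 CPM in control and 3269 and 2975 CPM in LPS (log2 fold change 10.23 ± 0.23, adjusted p = 5.17e-09), next to Pdk1, which inhibits pyruvate dehydrogenase, at 44.4 and 41.7 CPM in control and 12.3 and 9.71 CPM in LPS (log2 fold change -1.96 ± 0.21, adjusted p = 5.86e-05). Idh1, cytosolic isocitrate dehydrogenase, stood at 324 and 321 CPM in control and 150.2 and 157 CPM in LPS (log2 fold change -1.07 ± 0.15, adjusted p = 0.000399). Of 76 nuclear-encoded respiratory chain subunits 1 passed, which rose, and 0 fell; without LPS 1 there were 0 and 3, without LPS 2 20 and 4, and with library size scaling 0 and 10. That gene was Uqcrfs1 (0.78 ± 0.24; adjusted p = 0.0296), with adjusted p values of 0.1, 0.17 and 0.0685 without control 1, control 2 and LPS 1.

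Nucleotide, serine and one-carbon metabolism had 26 lowered and 7 raised genes of 56 (median -0.41; 12 lowered without control 1 and 11 without control 2). Rrm1 and Rrm2, the subunits of ribonucleotide reductase, stood at 177 and 182 CPM in control and 65.1 and 71.2 CPM in LPS and at 132 and 129 CPM in control and 43.5 and 48.1 CPM in LPS (adjusted p = 6.5e-05 and adjusted p = 5e-05). Cmpk2, a mitochondrial nucleotide kinase induced by interferon, was an exception at 0.343 and 0.481 CPM in control and 304 and 222 CPM in LPS (log2 fold change 9.23 ± 0.33, adjusted p = 3.89e-08). In amino acid, NAD and polyamine metabolism 6 of 32 rose and 2 fell. The fallen were 1 without control 2, 4 without LPS 1, 5 without LPS 2 and 8 under library size scaling, with which the direction of this list turned. Arg2, the mitochondrial arginase, stood at 0.343 and 0.321 CPM in control and 14.4 and 11.1 CPM in LPS (log2 fold change 5.17 ± 0.41, adjusted p = 8.27e-06). Cd38, an NAD-consuming surface enzyme, stood at 14.4 and 12.7 CPM in control and 62.2 and 70 CPM in LPS (log2 fold change 2.29 ± 0.19, adjusted p = 1.25e-05).

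Solute carriers moved both ways, 33 up and 39 down of 184, near the shares over all genes, with 26 and 22 without control 1 and 51 and 45 without LPS 2. Slc7a11, the cystine importer, stood at 531 and 604 CPM in control and 4502 and 7303 CPM in LPS (log2 fold change 3.38 ± 0.23, adjusted p = 2.49e-06). Slc1a2, a glutamate importer, stood at 2.57 and 2.24 CPM in control and 187 and 167 CPM in LPS (log2 fold change 6.19 ± 0.22, adjusted p = 3.56e-08). The organic anion carriers Slco3a1 and Slco2b1 took opposite directions: Slco2b1 stood at 102 and 103 CPM in control and 4.104 and 5.26 CPM in LPS (log2 fold change -4.44 ± 0.21, adjusted p = 2.59e-07). Slco3a1 stood at 0 and 0.1603 CPM in control and 56.4 and 48.8 CPM in LPS (ratio 635, 95% counting interval 113 to 25122, adjusted p = 2.99e-07). Slc6a6, the taurine carrier, was lower (898 and 928 CPM in control and 419 and 408 CPM in LPS, log2 fold change -1.14 ± 0.14, adjusted p = 0.000148).

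Of 50 antioxidant, glutathione and iron genes 15 rose, 1 fell and 34 did not pass (3 down without LPS 1 and 25 up without LPS 2). Sod2, the mitochondrial superoxide dismutase, stood at 201 and 197 CPM in control and 973 and 1050.2 CPM in LPS (log2 fold change 2.35 ± 0.14, adjusted p = 1.46e-06), and the metal importers Slc39a14 and Slc11a2 rose by 2.20 ± 0.15 and 2.21 ± 0.16. The 1 that fell was Tfrc, the transferrin receptor, named after its values were seen (-0.64 ± 0.19; adjusted p 0.126 without control 1 and 0.164 without control 2). Lysosomal genes gave 7 up and 11 down of 74, with 2 and 2 without control 1 and 2 and 3 without control 2, and 21 and 15 without LPS 2, which turned their order. The abundant lysosomal proteins Psap and Ctsd did not pass (adjusted p = 0.101 and adjusted p = 0.619). Ctsd stood at 5629 and 5598 CPM in control and 5841 and 4539 CPM in LPS. Psap stood at 6712 and 6621 CPM in control and 5683 and 4893 CPM in LPS. Its log2 fold change was -0.33, and -0.45 without LPS 1. Psap passed with GC offsets (adjusted p = 0.0145), a replicate block (adjusted p = 0.0469) and library size scaling (adjusted p = 0.00674).

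In the eicosanoid list 6 of 31 genes rose and 9 fell. The inducible and the constitutive cyclooxygenase moved apart: Ptgs2 stood at 1.03 and 0.641 CPM in control and 513 and 725 CPM in LPS (log2 fold change 9.50 ± 0.33, adjusted p = 3.36e-08) and Ptgs1 at 87.4 and 80.5 CPM in control and 21.1 and 17.4 CPM in LPS (log2 fold change -2.12 ± 0.18, adjusted p = 1.32e-05). Ptges, the prostaglandin E synthase, stood at 15.2 and 10.1 CPM in control and 776 and 511 CPM in LPS (log2 fold change 5.67 ± 0.28, adjusted p = 3.28e-07). Mgll, which frees arachidonic acid from monoacylglycerol, stood at 249 and 246 CPM in control and 86.8 and 52.4 CPM in LPS (log2 fold change -1.83 ± 0.22, adjusted p = 0.000144). Alox5, the first enzyme of leukotriene synthesis, chosen after its values were seen, was lower (log2 fold change -1.04 ± 0.15, adjusted p = 0.000507). In sphingolipid metabolism 6 rose and 7 fell of 36 (16.7% and 19.4%), near the shares over all genes. Cerk, ceramide kinase, stood at 198 and 193 CPM in control and 36.9 and 38.03 CPM in LPS (log2 fold change -2.38 ± 0.17, adjusted p = 3.48e-06).

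**Figure D4:**
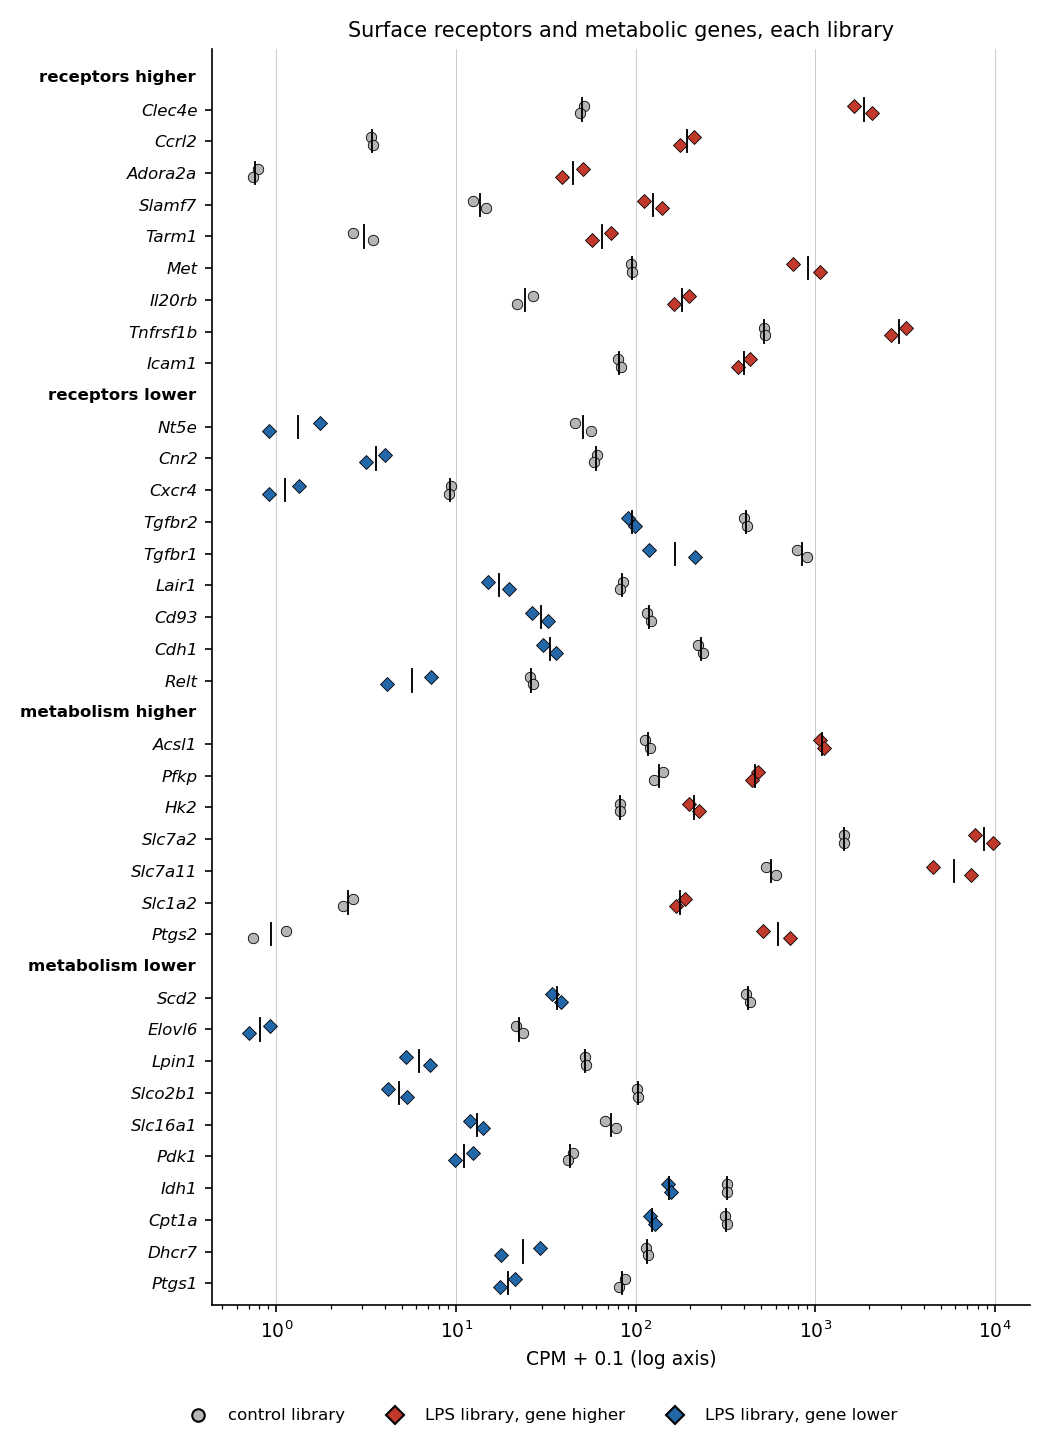
CPM plus 0.1 (log axis) of 35 genes of surface receptors and metabolism in each control library (grey circles) and LPS library (diamonds; red for genes that rose, blue for genes that fell); the vertical tick is the mean of the 2 libraries. Nt5e and Adora2a cross over, and Ptgs2 and Ptgs1 move apart. All of these genes passed the test, and the 2 groups overlap in none that passed, nor in 65.2% of all tested genes.

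The largest lowered share of any list examined was in DNA synthesis and cell division: 87 of 122 tested genes fell and 3 rose (median -1.17 on the log2 scale). The 3 that rose were E2f5, Ccnd2 and Bub1b, named after their values were seen (1.78 ± 0.28, 0.77 ± 0.13 and 0.49 ± 0.15). Without control 1 the adjusted p values were 0.0115 for E2f5, 0.0509 for Ccnd2 and 0.283 for Bub1b, and the last had 0.196 without control 2 and 0.0545 without LPS with VD3 library 2. Mcm6 and Mcm7, subunits of the replicative helicase, stood at 172 and 167 CPM in control and 43.5 and 51.99 CPM in LPS and at 99.7 and 84.9 CPM in control and 23.2 and 22.5 CPM in LPS (log2 fold change -1.83 ± 0.16, adjusted p = 1.7e-05, and log2 fold change -2.01 ± 0.17, adjusted p = 1.49e-05). E2f2, an E2F factor, stood at 41.8 and 37.2 CPM in control and 4.93 and 5.46 CPM in LPS (log2 fold change -2.92 ± 0.27, adjusted p = 2.24e-05). Cdca7, a chromatin factor of dividing cells, stood at 22.1 and 25 CPM in control and 2.87 and 2.43 CPM in LPS (log2 fold change -3.14 ± 0.28, adjusted p = 1.77e-05). The proliferation marker Mki67 stood at 631 and 641 CPM in control and 387 and 495 CPM in LPS and did not pass (adjusted p = 0.0597); its adjusted p was 0.00421 without LPS 2 and 0.0463 without LPS with VD3 library 2. Mki67 passed with GC offsets (adjusted p = 0.0111), a replicate block (adjusted p = 0.0119) and library size scaling (adjusted p = 0.00638). The E2F-type element TTTNGCGC was in 16 of 101 windows of this list (15.8%) against 2.67% of all windows, and the CCAAT box in 63.4% against 39.7%. The stretches below carry the E2F-type letters in capitals.
Mcm6, chr1:128359758-128359827, minus strand: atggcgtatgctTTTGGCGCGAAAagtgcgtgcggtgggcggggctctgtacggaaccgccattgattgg
Racgap1, chr15:99651670-99651739, minus strand: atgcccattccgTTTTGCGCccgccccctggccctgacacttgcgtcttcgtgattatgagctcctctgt
Kif15, chr9:122951011-122951080, plus strand: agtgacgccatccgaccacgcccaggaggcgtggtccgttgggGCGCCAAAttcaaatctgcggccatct

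DNA repair had 48 of 90 genes lower and 2 higher (median -0.77; higher: 0 without control 1, 1 without control 2 and 6 without LPS 2). Some of these genes also belong to the replication list. Dna2, a nuclease and helicase, stood at 46.3 and 49.4 CPM in control and 4.93 and 3.84 CPM in LPS (log2 fold change -3.44 ± 0.25, adjusted p = 4.91e-06). Ung, which removes uracil from DNA, stood at 21.2 and 21.5 CPM in control and 2.46 and 1.21 CPM in LPS (log2 fold change -3.52 ± 0.32, adjusted p = 2.24e-05), and the checkpoint kinase Chek2 at 26.04 and 29.3 CPM in control and 6.98 and 6.27 CPM in LPS (log2 fold change -2.06 ± 0.23, adjusted p = 9.03e-05). Ribosome biogenesis changed less: 19 of 99 fell (19.2%, against 16.0% over all tested genes) and 1 rose (1.01%, against 15.5%). The lowered were 7 without control 1 and 7 without control 2, while 2 rose without LPS 1, and 10 rose and 32 fell without LPS 2. Dkc1, the pseudouridine synthase of small nucleolar RNPs, stood at 59.6 and 63.1 CPM in control and 22.6 and 24.3 CPM in LPS (log2 fold change -1.39 ± 0.17, adjusted p = 0.000168). Npm1, nucleophosmin, and Ncl, nucleolin, did not pass (adjusted p = 0.573 and adjusted p = 0.0906). Npm1 stood at 455 and 480.3 CPM in control and 367 and 481 CPM in LPS. Ncl stood at 626 and 678 CPM in control and 343 and 557 CPM in LPS. Its log2 fold change was -0.54, and -0.93 without LPS 2. Ncl passed with GC offsets (adjusted p = 0.0135), a replicate block (adjusted p = 0.0119) and library size scaling (adjusted p = 0.012).

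Inhibitors of cytokine and receptor signalling rose in 22 of 33 cases and fell in 2 (14 up without control 1, 14 without control 2), for example Tnip1, a partner of the deubiquitinase A20, at 69.4 and 69.1 CPM in control and 655 and 568 CPM in LPS (log2 fold change 3.14 ± 0.17, adjusted p = 4.99e-07). Zc3h12a and Zc3h12c, RNases of the Regnase family, stood at 33.8 and 33.98 CPM in control and 606 and 456 CPM in LPS and at 30.2 and 27.1 CPM in control and 384 and 569 CPM in LPS (adjusted p = 2.86e-07 and adjusted p = 6.66e-07). Cdc42ep3, an effector of Cdc42, stood at 74.5 and 75.97 CPM in control and 6.77 and 8.497 CPM in LPS (log2 fold change -3.30 ± 0.20, adjusted p = 1.53e-06). Arhgap25 stood at 130.2 and 138 CPM in control and 45.4 and 43.1 CPM in LPS (log2 fold change -1.60 ± 0.16, adjusted p = 3.21e-05). Among regulators of G protein signalling, Rgs2 stood at 52.6 and 56.6 CPM in control and 3.28 and 5.06 CPM in LPS (log2 fold change -3.70 ± 0.41, adjusted p = 7.65e-05). Arrb1, beta-arrestin 1, stood at 224 and 217 CPM in control and 43.3 and 34.2 CPM in LPS (log2 fold change -2.51 ± 0.17, adjusted p = 2.89e-06), and the phosphodiesterase Pde3b at 81.03 and 84.3 CPM in control and 13.1 and 18.4 CPM in LPS (log2 fold change -2.39 ± 0.20, adjusted p = 1.13e-05). Another phosphodiesterase, Pde4b, was higher (16.3 and 13.6 CPM in control and 126 and 173 CPM in LPS, log2 fold change 3.32 ± 0.21, adjusted p = 1.71e-06). In that list 8 rose and 12 fell of 45, with 3, 4 and 13 up without control 1, control 2 and LPS 2.

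Phosphoinositide genes gave 12 up and 15 down of 61 (7 and 9 without control 1, 7 and 8 without control 2). Plcb2, a phospholipase C of chemoattractant signalling, stood at 249 and 225 CPM in control and 50.7 and 44.3 CPM in LPS (log2 fold change -2.32 ± 0.17, adjusted p = 3.99e-06). Inpp5d (SHIP1), a phosphatase that limits PI3K signals, stood at 161 and 163 CPM in control and 52.1 and 42.7 CPM in LPS (log2 fold change -1.77 ± 0.16, adjusted p = 2.31e-05). MAP kinases and their phosphatases gave 15 up and 9 down of 55, and 10 and 13 with scaling by library size alone. The number lowered was 2 without control 1, 4 without control 2, and 5 without either library of LPS with VD3. Dusp16 stood at 24.3 and 20.03 CPM in control and 113 and 129.7 CPM in LPS (log2 fold change 2.45 ± 0.18, adjusted p = 4.62e-06). Mapkapk2, a kinase downstream of p38, stood at 272 and 252 CPM in control and 1214 and 944 CPM in LPS (log2 fold change 2.04 ± 0.17, adjusted p = 1.03e-05). In the apoptosis list 14 of 48 genes rose and 7 fell (11 fell without LPS 1). Cflar, which blocks caspase 8, stood at 128 and 132 CPM in control and 778 and 1098 CPM in LPS (log2 fold change 2.85 ± 0.19, adjusted p = 2.44e-06). Bmf, a pro-apoptotic BCL2 family member picked after its values were seen, stood at 19.9 and 21.5 CPM in control and 0.821 and 1.62 CPM in LPS (log2 fold change -4.05 ± 0.35, adjusted p = 1.32e-05). Bcl2a1d was higher as well (2.47 ± 0.14), but its near-identical copies make its count uncertain.

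**Figure D5:**
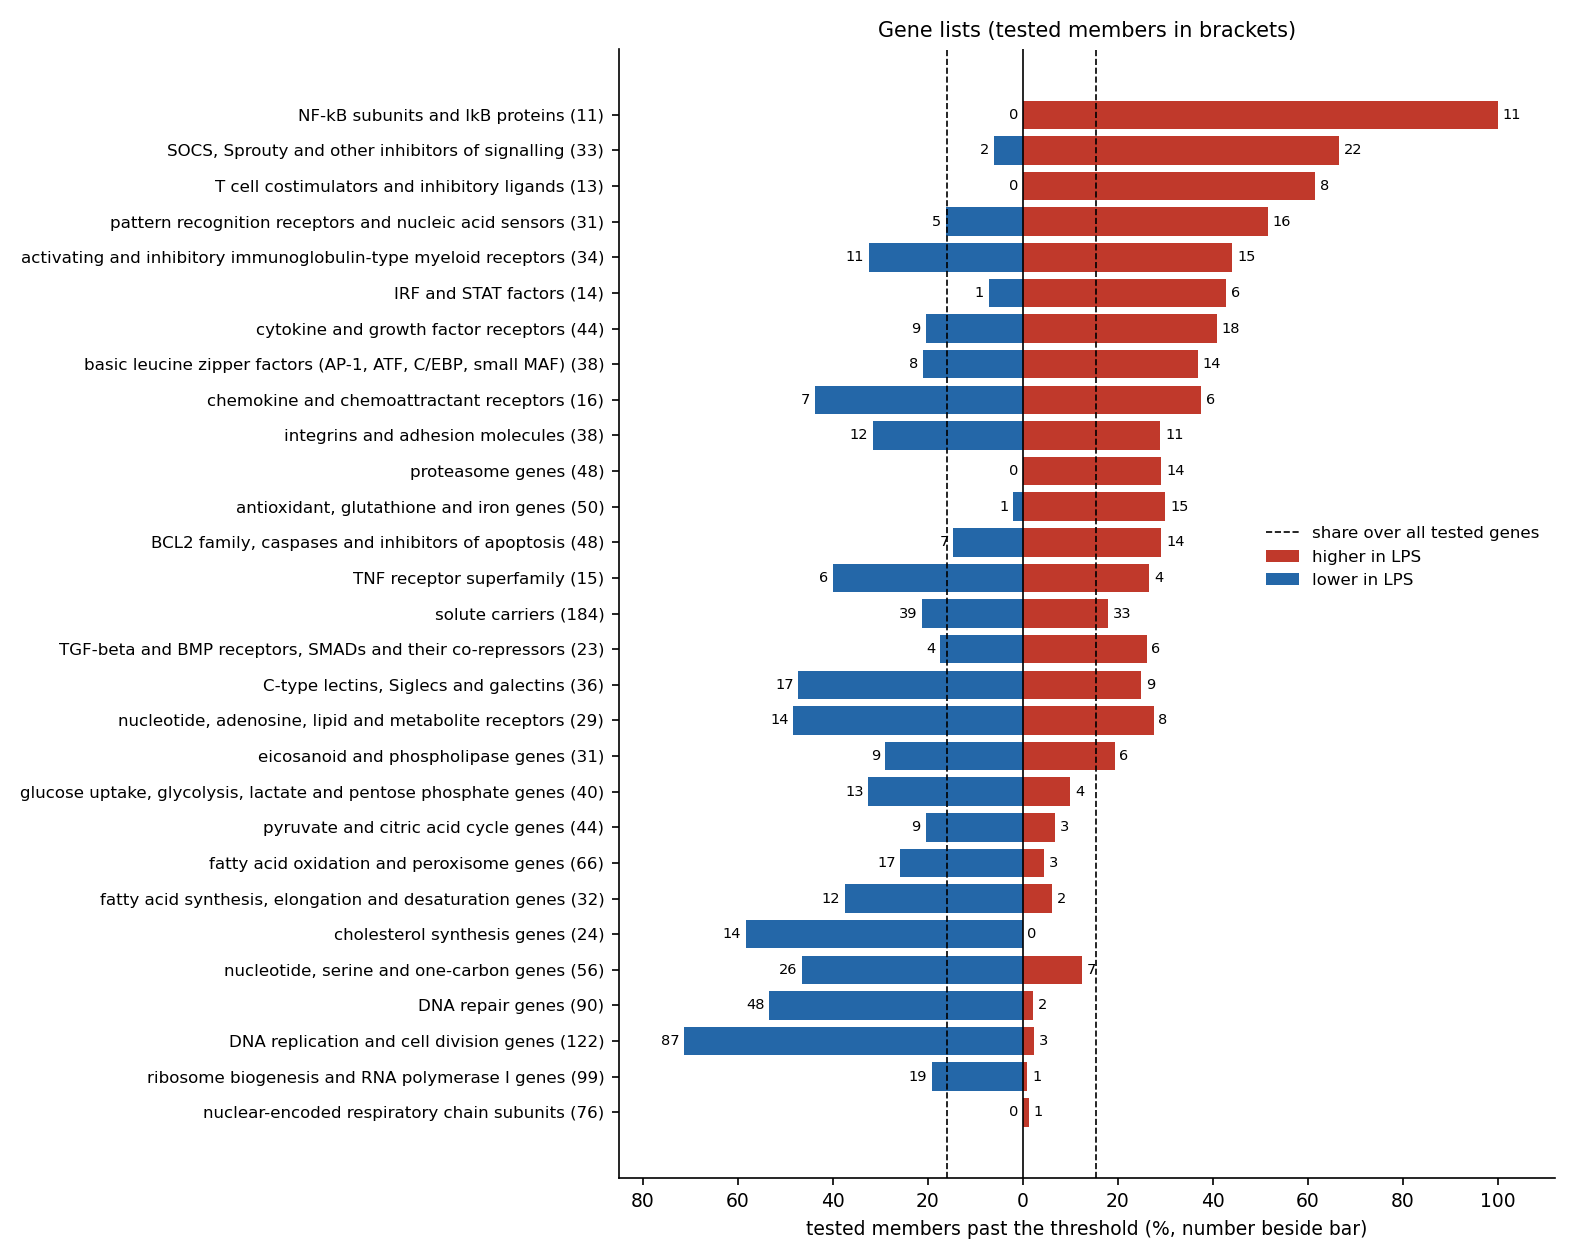
Share of tested members (%) that passed the test upward (red, to the right) or downward (blue, to the left) in 29 gene lists, with the number of genes beside each bar and the number tested in brackets; dashed lines mark the shares over all tested genes, 15.5% and 16.0%. DNA replication, DNA repair and cholesterol synthesis extend furthest to the left, and the NF-kB list reaches 100% to the right.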

How the data were processed

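The authors deposited 1 table of raw counts per gene for 6 libraries of mouse alveolar macrophages; per the labels' protocols RNA was made into mRNA libraries. TopHat2, edgeR and mm10 are named in the submitters' processing notes; for the counting program, annotation and strand setting: not given in the sources used here. Of 23413 genes, 7903 had no count and 10724 passed edgeR's filterByExpr (minimum count 10, total 15). Counts were TMM-scaled and fitted with edgeR 4.0.16 (R 4.3.3) by quasi-likelihood over all 6 libraries, as 3 groups, and LPS was tested against control with Benjamini-Hochberg adjustment. With 0 counts in a group, folds are bounds against 3 counts over the group, and with 1 to 3 counts ratios with 95% intervals, which cover counting error only. The test was tried on simulated counts. DESeq2 1.42.0, other scalings, filters, GC offsets, a replicate block and leave-one-out fits were alternatives. Named genes are up to 4 passing members of smallest p and up to 2 most abundant other members of each list, the 15 largest gains and losses of CPM, the largest folds in each abundance class and the 10 most abundant genes; others are marked as picked after their values were seen. The members and lists were chosen with earlier results of these data known. Promoters come from RefSeq (GRCm38.p6), and exonic lengths and GC content from the GENCODE mouse annotation and its transcripts. Some items are not reported here.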

Additional observations from a re-analysis of the deposited data

How the results depend on the processing

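By library size alone 1089 genes were higher and 3023 lower, and with GC offsets and a replicate block 2570 were lower. Leaving out 1 library gave 954 to 2397 higher and 961 to 2378 lower genes. The other settings (RLE size factors, DESeq2, the 4 compared libraries, no filter beyond 1 count, GC offsets, and GC offsets without an LPS library, the last chosen after seeing the data) stayed within 1.5 times of both counts. Of 386 named genes, 0 changed direction past the threshold; 22 lost their call without control 1 and 19 without control 2. With GC offsets 20 named genes gained a call, and with GC offsets and a replicate block 29 did. The gene lists were less stable to GC offsets than the totals. With them 18 of 116 counts of raised or lowered members changed by more than 1.5 times. When the block was added, 30 did. Same-numbered libraries deviated together weakly (Pearson's r across genes 0.172 for control and LPS, 0.196 for LPS and LPS with VD3, 0.0894 for control and LPS with VD3). The numbers were therefore not taken as pairs. The replicate block gave 1967 higher and 1980 lower. Precision is limited by 2 libraries a group with 5022314 to 5454955 counts each. The cause of these shifts was not tested.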

Other observations

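Protein turnover, trafficking and RNA decay were measured as well. Of 48 proteasome genes 14 rose and 0 fell (median 0.40); 4 rose without control 1, 3 without control 2, 26 without LPS 2, 9 without LPS with VD3 library 2 and 5 with library size scaling. Psmd10 stood at 34.1 and 30.9 CPM in control and 77.6 and 74.2 CPM in LPS (log2 fold change 1.22 ± 0.17, adjusted p = 0.000305). Psme2, an activator subunit induced by interferon, stood at 107 and 95.4 CPM in control and 243 and 196 CPM in LPS (log2 fold change 1.12 ± 0.21, adjusted p = 0.00221). Ubiquitin ligases of the TRIM family and deubiquitinases gave 24 raised and 9 lowered of 90 (14 and 5 without control 1, 13 and 5 without control 2, 15 and 19 with library size scaling, which turns the order). Tnfaip3, the deubiquitinase A20, stood at 34.3 and 26.3 CPM in control and 704 and 736 CPM in LPS (log2 fold change 4.57 ± 0.19, adjusted p = 7.79e-08). Autophagy genes gave 6 up and 4 down of 39 (3 up without control 1, 3 without control 2, 3 and 7 with library size scaling, which turns the order). Sqstm1, the cargo receptor p62, stood at 318 and 304 CPM in control and 1130.1 and 1046 CPM in LPS (log2 fold change 1.81 ± 0.15, adjusted p = 1.21e-05), while Atg7, an enzyme of autophagosome formation, stood at 83.4 and 83.02 CPM in control and 40.4 and 34.2 CPM in LPS (log2 fold change -1.16 ± 0.16, adjusted p = 0.000413).

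RNA decay genes gave 12 up and 4 down of 49 (5 and 2 without control 1, 5 and 2 without control 2, 5 and 9 with library size scaling, which turns the order; 12 and 8 without LPS 2). Zfp36l2, which binds AU-rich elements, stood at 394 and 403 CPM in control and 177 and 200.1 CPM in LPS (log2 fold change -1.08 ± 0.15, adjusted p = 0.000358), below control in both LPS libraries. Rab GTPases and their regulators gave 14 and 14 of 75 (18.7% and 18.7%, near the shares over all genes), and 8 and 18 with library size scaling. Rab32, a GTPase of lysosome-related organelles, stood at 153 and 149 CPM in control and 634 and 582 CPM in LPS (log2 fold change 2.01 ± 0.15, adjusted p = 4.36e-06). Ras and Rap regulators gave 13 and 5 of 38 (7 and 5 without control 1, 13 and 8 without LPS 2, and 10 and 12 with library size scaling, which turns the order). Rasgrp1, an activator of Ras, stood at 2.06 and 0.641 CPM in control and 40.02 and 40.5 CPM in LPS (log2 fold change 4.90 ± 0.38, adjusted p = 6.71e-06). Rasa3, an inhibitor of Ras and Rap, stood at 96.6 and 97.6 CPM in control and 22.6 and 18.8 CPM in LPS (log2 fold change -2.23 ± 0.18, adjusted p = 1.01e-05). Of 9 complement genes 3 rose and 0 fell (1 rose without control 2), led by Cfb, complement factor B (322 and 293 CPM in control and 1716 and 1353 CPM in LPS, log2 fold change 2.32 ± 0.17, adjusted p = 4.91e-06). A further 16 complement genes were not tested, so nothing is read from the complement counts. Circadian genes gave 4 and 3 of 17, mitochondrial ribosomal proteins 2 and 3 of 76, and cytosolic tRNA synthetases 1 and 6 of 22. Without control 2 these were 1 and 1, 1 and 2 and 0 and 0, without control 1 1 and 0, 1 and 0 and 0 and 0, and without LPS 2 4 and 5, 15 and 6 and 2 and 7. Without LPS 1 the mitochondrial ribosomal counts were 1 and 10. The 552 genes with placeholder symbols gave 62 and 57 (37 and 38 without control 1, 37 and 32 without control 2, 86 and 101 without LPS 2, 43 and 106 with library size scaling). Cytokines gave 23 raised and 3 lowered of 35. Of the 90 listed, 55 were not tested. A member silent in control can enter the test only through groups in which it is higher, so nothing is read from these counts.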
